A study of Homo sapiens with 6 samples.

Results

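The minichromosome maintenance (MCM) genes were followed by RNA-seq in Ishikawa cells, a human endometrial cancer line, after knockdown of TCF19. The set held 10 genes chosen by name, MCM2 to MCM10 and MCMBP, out of 58735 rows of the deposited gene table. The siTCF19 group held 3 libraries of cells transfected with siRNA directed at TCF19, and the siNC group held 3 libraries of cells transfected with a negative control siRNA. Both groups were lipofected, kept in serum-containing DMEM and harvested 48 hours later for total RNA. All come from 1 cell line under transient knockdown. Since the labels do not say if replicates were separate cultures, a p-value here reflects library-to-library spread alone, and that spread may be technical.

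MCM2 to MCM7 encode the subunits of the ring-shaped replicative helicase. The ring is loaded onto replication origins before S phase by the origin recognition complex (ORC) with CDC6 and CDT1, and in S phase it unwinds DNA as part of the CMG complex, together with CDC45 and the GINS subunits. MCM8 and MCM9 are related helicase proteins that act in homologous recombination. MCM10 shares the name but not the helicase fold and is needed to switch the loaded helicase on, and MCMBP binds MCM subunits and protects newly made ones. Transcription of MCM genes is classically driven by E2F factors at the entry into S phase, and the proteins are used as proliferation markers in endometrial and other cancers.

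Promoter sequences in RefSeq (build GRCh38.p14) run from 250 bases before a transcription start to 50 bases after it, and 11 such promoters matched 8 of the members. MCM4 and MCM5 had no entry. The sequences below are shown because 6 of the 8 matched members carry an E2F-type word, defined here as TTTCCCGC, TTTCGCGC, TTTGCCGC or TTTGGCGC on either strand. In MCM2 and MCM6 words on opposite strands overlap and are capitalised as 1 run. Any of the 4 words occurs in 6 of the 11 member promoters. The share is 3.32% of all 35116 promoters of this length and 4.75% of the 16117 that belong to genes tested here. MCM7 and MCMBP have further RefSeq starts whose promoters carry no such word. Their positions below are counted from the starts at 100101397 (MCM7) and 119872843 (MCMBP). Capitals mark the words, and in the longer MCM6 stretch also CCAAT or its complement. Each sequence is written along the gene's own strand.
MCM2, chr3:127598404-127598433, plus strand: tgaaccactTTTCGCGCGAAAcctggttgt
MCM3, chr6:52284728-52284757, minus strand: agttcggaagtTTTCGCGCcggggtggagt
MCM6, chr2:135876489-135876608, minus strand: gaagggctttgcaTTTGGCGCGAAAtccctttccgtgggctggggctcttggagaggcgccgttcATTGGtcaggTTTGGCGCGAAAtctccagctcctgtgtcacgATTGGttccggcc
MCM7, chr7:100101388-100101417, minus strand: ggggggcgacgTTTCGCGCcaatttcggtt
MCM8, chr20:5950667-5950696, plus strand: ggatcactgaaGCGCCAAAaaagaatttag
MCMBP, chr10:119872834-119872863, minus strand: ggcggcggctaTTTCCCGCcattgtgcgaa

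In MCM2 the merged word lies at bases 3 to 14 after the start, in MCM3 at -4 to 4, in MCM7 at -9 to -2, in MCMBP at -9 to -2 and in MCM8 at 27 to 34. MCM6 carries 1 run of capitals at -152 to -141 and the same run again at -90 to -79. MCM3 also holds TTTCCCGC at -174 to -167, and MCM7 holds it on the other strand at -187 to -180. The exact word TTTCGCGC is present in MCM2, MCM3, MCM6 and MCM7, or 4 of the 11 member promoters, and in 0.515% of all promoters. CCAAT, the letters bound by NF-Y, was found for 6 of the 8 matched members, with any overlap allowed. Counted by promoter, that is 8 of the 11 member promoters, beside 34.6% of all promoters. A match describes the letters of a window and is not a measured binding site.

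TCF19 itself had 675, 529 and 606 counts in siTCF19 libraries, against 2572, 2905 and 2756 in siNC libraries. That is a log2 fold change of -2.20 ± 0.06 (SE; edgeR adjusted p = 6.15e-29). Library totals ran from 14680022 to 16244705 counts, and 17299 genes passed the filter on low counts. Epithelial markers (EPCAM, CDH1, KRT8, KRT18, KRT19) were all present and summed to 1877 to 1957 CPM (counts scaled to library size with TMM factors) in siTCF19 and 2013 to 2105 CPM in siNC. They moved in both directions, with log2 fold changes of 0.61 for CDH1, 0.44 for KRT19, -0.40 for KRT8, -0.43 for KRT18 and -0.04 for EPCAM. PAX8, EMX2, SOX17 and MSX1 were present, whereas the oestrogen receptor gene ESR1 had 0 to 1 counts in siTCF19 libraries and 0 to 4 in siNC libraries. Leukocyte markers summed to 1.27 to 1.47 CPM in siTCF19 and 1.24 to 3.98 CPM in siNC, with 2 of 4 above 0.2 CPM on average. Stromal markers, 3 of 5 of them above 0.2 CPM, summed to 125 to 135 CPM in siTCF19 and 177 to 180 CPM in siNC, mostly COL1A2, with DCN at 0. COL1A1 moved against that sum, with a log2 fold change of 0.58 beside -0.66 for COL1A2. PDGFRA averaged 0.439 CPM in siTCF19 and 0.0886 CPM in siNC, but the groups overlapped and it was not tested. Its counts were 4, 14 and 2 in siTCF19 libraries, against 2, 0 and 2 in siNC libraries. Endothelial markers, 3 of 4 above 0.2 CPM, summed to 13.8 to 17.3 CPM in siTCF19 and 6.56 to 6.99 CPM in siNC, mostly VWF. CDH5 moved against that sum, at 0.259 CPM on average in siTCF19 and 0.978 CPM in siNC (log2 fold change -1.89). PECAM1 was also lower, at 0.108 CPM in siTCF19 and 0.627 CPM in siNC, but did not pass the filter on low counts and was not tested. The part of the endothelial markers in the results was not tested.

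All 6 subunit genes of the replicative helicase were lower after TCF19 knockdown. In total 8 of the 10 members fell (MCM2 to MCM7, MCM10 and MCMBP), MCM8 rose and MCM9 was not called, with a gene called at an edgeR adjusted p under 0.05. Falls were called for 20.8% of all tested genes and rises for 20.7%, or 41.5% in either direction, so a call by itself was common in this comparison. The 10 members all passed the low-count filter, and their median log2 fold change was -0.34, beside 0.00 over all tested genes. In the 8 members that fell, every siTCF19 library lay below every siNC library, an arrangement seen in 24.9% of tested genes. The opposite arrangement was seen in 0 members and 24.4% of tested genes, so groups stood apart in 8 of 10 members and in 49.2% of tested genes. The sizes were moderate: the 8 changes ran from -30.1% to -15.9%. Fewer cycling cells and less of each mRNA per cell cannot be told apart in these bulk libraries.

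**Figure D1:**
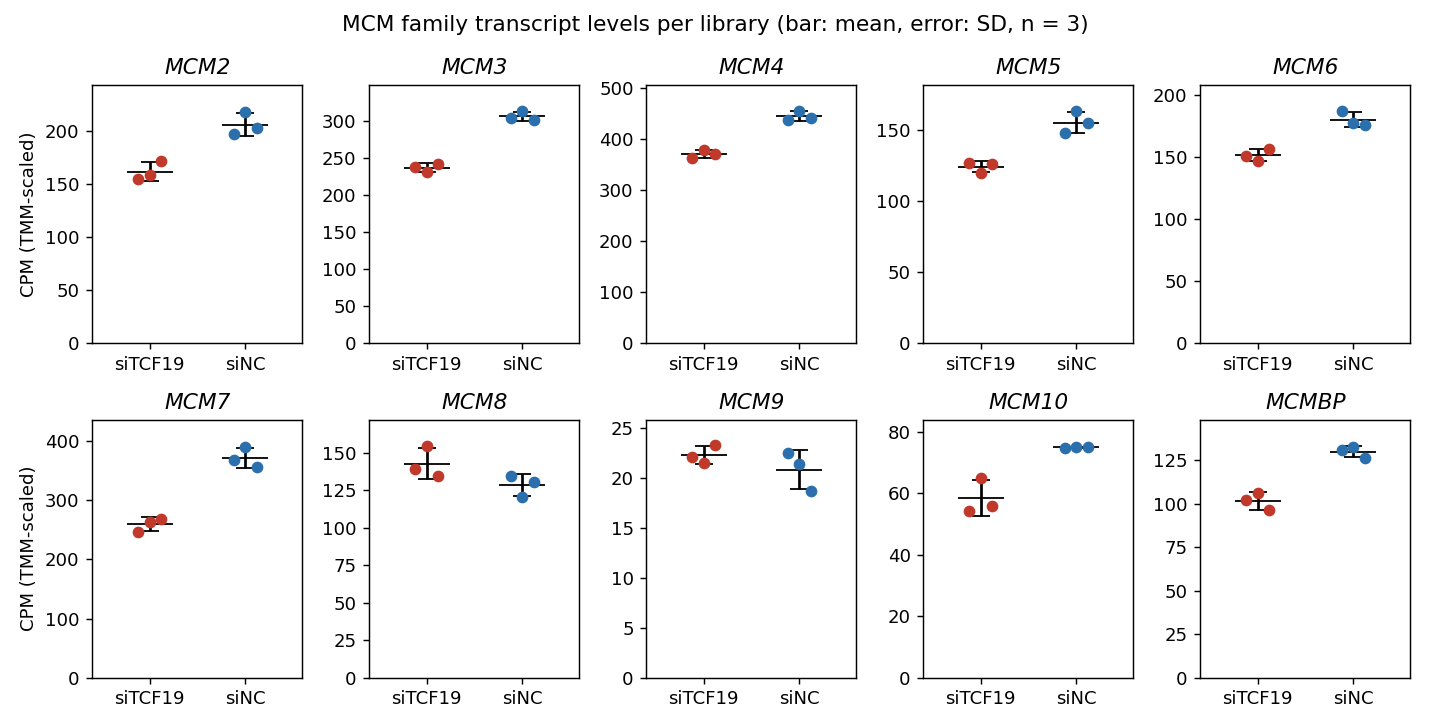
Transcript level of each MCM family gene in CPM (TMM-scaled, linear axis starting at 0) in every siTCF19 and siNC library; points are libraries, horizontal lines the mean and error bars the SD of 3. The groups stand apart for MCM2 to MCM7, MCM10 and MCMBP and overlap for MCM8 and MCM9.

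MCM7, a subunit whose ubiquitylation marks the helicase for removal at the end of replication, changed most. Its levels were 247, 264 and 269 CPM in siTCF19 libraries, against 368, 389 and 357 CPM in siNC libraries. The highest siTCF19 library was thus well under the lowest siNC library. MCM7 (ENSG00000166508, chromosome 7, 100092728 to 100101940, minus strand) had a log2 fold change of -0.52 ± 0.05 (SE), a change of -30.1% (95% interval -34.5% to -25.3%), and an edgeR adjusted p of 3.58e-12. A lower fold change was found in 9.12% of tested genes.

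MCM3, which docks the ring onto the origin-bound ORC and CDC6 in yeast, had 238, 230 and 241 CPM in siTCF19 libraries, against 304, 312 and 301 CPM in siNC libraries. Replicates lay close together, with a coefficient of variation of 2.36% in siTCF19 and 1.92% in siNC. MCM3 (ENSG00000112118, chromosome 6, 52264009 to 52284881, minus strand) fell by 0.37 ± 0.05 on the log2 scale (SE; edgeR adjusted p = 6.83e-09). MCM2, a histone-binding subunit and a target of the CDC7 kinase, had 155, 159 and 172 CPM in siTCF19 libraries, against 198, 218 and 203 CPM in siNC libraries. In MCM2 (ENSG00000073111, chromosome 3, 127598223 to 127622436, plus strand) the log2 fold change was -0.35 ± 0.05 (SE; edgeR adjusted p = 3.03e-07). The third siTCF19 library was the highest of its group and still lay below every siNC library.

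MCM5, which forms with MCM2 the gate through which DNA enters the ring, had 127, 120 and 126 CPM in siTCF19 libraries, against 148, 163 and 155 CPM in siNC libraries. The groups did not overlap, and MCM5 (ENSG00000100297, chromosome 22, 35400063 to 35425430, plus strand) fell by 0.32 ± 0.05 on the log2 scale (SE; edgeR adjusted p = 1.81e-06). MCM4, a further CDC7 target and the most counted member, had 361, 377 and 370 CPM in siTCF19 libraries, against 436, 455 and 440 CPM in siNC libraries. MCM4 (ENSG00000104738, chromosome 8, 47960185 to 47978160, plus strand) had a log2 fold change of -0.26 ± 0.04 (SE; edgeR adjusted p = 3.12e-06). The smallest fall among the subunits was that of MCM6, which binds the loading factor CDT1. MCM6 (ENSG00000076003, chromosome 2, 135839626 to 135876426, minus strand) had 151, 147 and 157 CPM in siTCF19 libraries, against 187, 177 and 175 CPM in siNC libraries. Its log2 fold change was -0.25 ± 0.05 (SE; edgeR adjusted p = 5.85e-05), a change of -15.9% (95% interval -21.5% to -9.85%). In MCM4 and MCM6, too, no siTCF19 library reached the siNC range.

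MCM10, the activator of the loaded helicase, had 54.2, 65.1 and 56.0 CPM in siTCF19 libraries, against 74.8, 75.2 and 74.9 CPM in siNC libraries. The siNC libraries were almost equal, and siTCF19 replicate 2 stood nearer to them than the other two. MCM10 (ENSG00000065328, chromosome 10, 13161554 to 13211104, plus strand) fell by 0.36 ± 0.06 on the log2 scale (SE; edgeR adjusted p = 1.09e-05). MCMBP, the MCM-binding protein gene, had 102, 107 and 96.3 CPM in siTCF19 libraries, against 131, 133 and 127 CPM in siNC libraries. No siTCF19 library reached the siNC range, and MCMBP (ENSG00000197771, chromosome 10, 119829404 to 119892556, minus strand) had a log2 fold change of -0.35 ± 0.05 (SE; edgeR adjusted p = 4.83e-07). Relative to the mean FPKM of MCM2 to MCM7, MCM10 stood at 0.244 ± 0.026 in siTCF19 and 0.243 ± 0.006 in siNC, and MCMBP at 0.386 ± 0.027 and 0.384 ± 0.006 in the same order (SD, n = 3 per group). Both ratios differed between the groups by less than the spread between libraries.

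The recombination helicase genes were not lower. MCM8 (ENSG00000125885, chromosome 20, 5950652 to 5998977, plus strand) had 139, 155 and 134 CPM in siTCF19 libraries, against 135, 120 and 131 CPM in siNC libraries. The groups overlapped, since siTCF19 replicate 3 was slightly below siNC replicate 1. Its log2 fold change was 0.15 ± 0.06 (SE; edgeR adjusted p = 0.024), a rise of 11.1% with a 95% interval of 2.85% to 20.0%. The call rested on replicate 2 of each group: without siTCF19 replicate 2 the log2 fold change was 0.10 (edgeR adjusted p = 0.163), and without siNC replicate 2 it was 0.11 (adjusted p = 0.156). DESeq2 gave an adjusted p of 0.0512, and the authors' deposited table lists 0.0508 with a log2 fold change of 0.15.

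MCM9 (ENSG00000111877, chromosome 6, 118813442 to 118935162, minus strand) had 22.1, 21.4 and 23.2 CPM in siTCF19 libraries, against 22.5, 21.3 and 18.6 CPM in siNC libraries. The ranges overlapped and the gene was not called, with a log2 fold change of 0.10 ± 0.09 (SE; edgeR adjusted p = 0.43). Its counts of 290 to 360 per library left a 95% interval of -0.09 to 0.29 on the log2 scale, which does not reach the fold changes of MCM2 to MCM7. The FPKM ratio of MCM8 to MCM9 was 10.5 ± 1.17 in siTCF19 and 10.1 ± 1.18 in siNC (SD, n = 3 per group), a difference within the spread. Against the mean FPKM of MCM2 to MCM7, MCM8 stood at 0.421, 0.461 and 0.387 in siTCF19 libraries and at 0.313, 0.269 and 0.307 in siNC libraries. The same ratio of MCM9 was 0.0410, 0.0393 and 0.0411 in siTCF19 libraries and 0.0322, 0.0293 and 0.0269 in siNC libraries. Neither ratio overlapped between the groups, and the two-sided exact permutation test of 3 against 3 libraries cannot go below p = 0.1.

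Per length, the members differed widely in level. The deposited FPKM (fragments per kilobase of gene length, scaled to library size) of MCM3 averaged 64.2 ± 1.71 in siTCF19 and 83.0 ± 1.77 in siNC, and that of MCM7 58.7 ± 2.40 in siTCF19 and 84.0 ± 3.92 in siNC (SD, n = 3 per group). On this measure the pair could not be ordered in siNC, where the ranges overlapped. In siTCF19 every MCM3 value lay above every MCM7 value. MCM4 followed at 52.5 ± 0.93 FPKM in siTCF19 and 63.0 ± 1.46 FPKM in siNC. MCM6 had 36.4 ± 1.25 FPKM in siTCF19 and 43.3 ± 1.56 FPKM in siNC, next to MCM2 with 32.7 ± 1.84 and 41.7 ± 2.22 FPKM in the same order. MCM6 and MCM2 overlapped in siNC but not in siTCF19, where MCM6 was higher. These orders hold for the deposited gene length only. Per length of the longest annotated protein-coding transcript, MCM7 and MCM4 lay above MCM3, and MCM2 above MCM6, in every library. MCM5, MCMBP and MCM8 lay close together, at 16.8, 16.8 and 18.4 FPKM in siTCF19 and at 21.0, 21.5 and 16.6 FPKM in siNC. MCM10 had 10.6 ± 1.02 FPKM in siTCF19 and 13.6 ± 0.06 FPKM in siNC, and MCM9 was lowest at 1.76 ± 0.07 and 1.65 ± 0.16 FPKM in the same order.

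The summed FPKM of MCM2 to MCM7 was 257, 258 and 268 in siTCF19 libraries, against 333, 347 and 328 in siNC libraries. The sum in siTCF19 was 0.778 times that in siNC, and the groups did not overlap. Within the sum, the shares of 3 subunits stood apart between the groups. MCM7 took 21.8%, 23.0% and 22.6% in siTCF19 libraries, against 25.0%, 25.4% and 24.5% in siNC libraries, a difference of -2.53 percentage points. The share of MCM4 differed by 1.34 points, with 20.0%, 20.7% and 19.6% in siTCF19 libraries against 18.7%, 18.7% and 19.0% in siNC libraries. That of MCM6 differed by 1.04 points, with 14.1%, 13.6% and 14.0% in siTCF19 libraries against 13.5%, 12.3% and 12.8% in siNC libraries.

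Those 3 shares did not overlap between the groups (two-sided exact permutation p = 0.1 each, the smallest that 3 against 3 libraries allow). They are parts of the same sum, so the 3 differences are not independent of each other. A lower share of MCM7 raises the other shares, and the levels of MCM4 and MCM6 themselves fell. The shares of MCM2, MCM3 and MCM5 differed by 0.11, -0.14 and 0.18 points and overlapped. In pairs, the log2 ratio of MCM7 to each of the other 5 subunits was lower in siTCF19 than in siNC by 0.15 to 0.27 with no overlap. Of the 15 pairs among MCM2 to MCM7, 7 did not overlap, and no pair's exact p can fall under 0.1, before or after adjustment over the pairs. MCM5 has the lowest share, 6.42% ± 0.23 in siTCF19 and 6.24% ± 0.21 in siNC, but the deposited gene length of 7338 bases counts all annotated exons. With the longest annotated protein-coding transcript, 3534 bases, its share was 9.59% ± 0.36 in siTCF19 and 9.33% ± 0.29 in siNC (SD, n = 3 per group), still the lowest. The order of other subunits depended on the length used. By transcript length MCM7 took 23.0% ± 0.61 and MCM3 20.1% ± 0.46 in siTCF19, against 25.6% ± 0.45 and 20.2% ± 0.19 in siNC. MCM2 took 12.2% ± 0.40 and MCM6 11.05% ± 0.23 in siTCF19, against 12.1% ± 0.33 and 10.2% ± 0.50 in siNC.

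**Figure D2:**
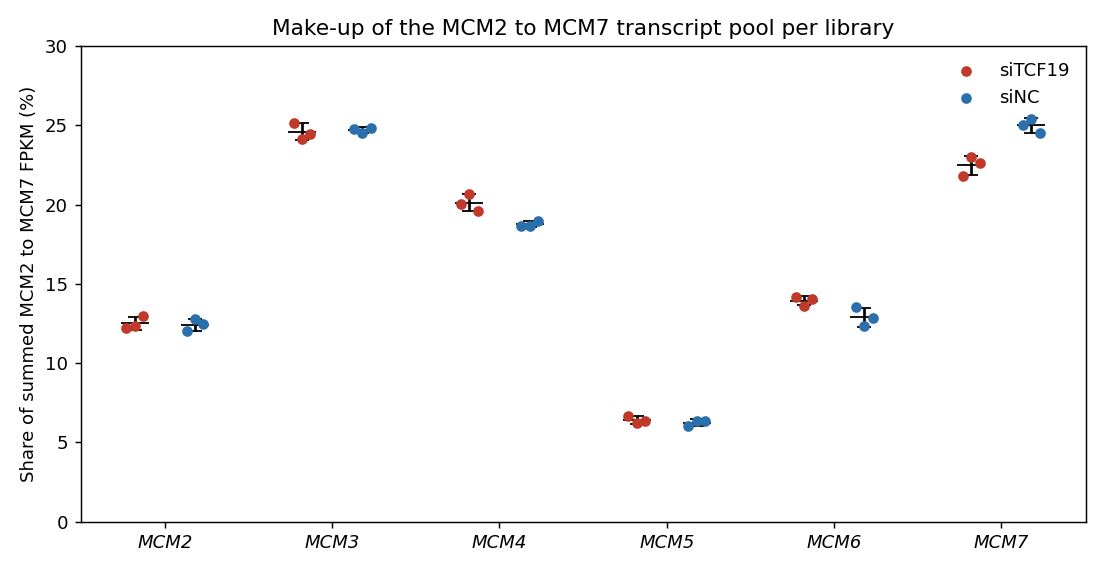
Share of each subunit gene in the summed deposited FPKM of MCM2 to MCM7, in percent, for each siTCF19 library (left of each pair) and siNC library (right); horizontal lines are means and error bars SDs of 3 libraries. MCM7 lies lower in siTCF19 (mean 22.5% against 25.0% in siNC), MCM4 and MCM6 lie higher, and the other 3 overlap. Shares of the same sum are not independent of each other.

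The factors that load the ring had a median log2 fold change of -0.10, beside -0.34 for its subunits. Of 9 origin licensing genes, 4 fell, 0 rose (0 with p under 0.05 before adjustment, and 0 by DESeq2, limma-voom or limma on FPKM) and 5 were not called. Beside this, 20.8% of all tested genes fell and 20.7% rose, or 41.5% in either direction. ORC1, the largest ORC subunit, had 46.0 ± 3.76 CPM in siTCF19 and 53.5 ± 2.51 CPM in siNC (SD, n = 3 per group), a log2 fold change of -0.22 ± 0.07 (SE; edgeR adjusted p = 0.00939). ORC5 also fell (-0.21, adjusted p = 0.0287), as did ORC6 (-0.16, adjusted p = 0.0314) and the loader CDC6 (-0.14, adjusted p = 0.0321), both named after their values were seen. The loader CDT1 (-0.06, adjusted p = 0.425) and its inhibitor GMNN (0.07, adjusted p = 0.441) were not called. The count of falls was 0 with library-size-only scaling, 1 by DESeq2 and 1 without siTCF19 replicate 1 or without any one siNC library, and 2 without siTCF19 replicate 2 or by limma on FPKM. ORC1 was not called without siTCF19 replicate 1 (adjusted p = 0.136) or siNC replicate 2 (0.0575). Its call was lost under 3 of 16 alternatives, that of ORC6 under 7, CDC6 under 9 and ORC5 under 10. The call of ORC5 was lost on leaving out any single library, with adjusted p from 0.0579 to 0.0824.

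No fall was called in the main fit among the partners that turn MCM2 to MCM7 into the active helicase. Of 13 CMG and firing genes, 2 rose, 0 fell (0 with p under 0.05 before adjustment, and 0 by DESeq2, limma-voom or limma on FPKM) and 11 were not called, with a median of -0.01. For comparison, 20.7% of all tested genes rose and 20.8% fell, so few calls in either direction would be usual for a list of this length. Without siNC replicate 3, 1 of them fell, and library-size-only scaling gave 4 rises. CDC45, the CMG member, had 69.5 ± 0.47 CPM in siTCF19 and 70.2 ± 2.37 CPM in siNC (SD, n = 3 per group; log2 fold change -0.01). The GINS genes had log2 fold changes of 0.03 for GINS1, -0.13 for GINS2, -0.12 for GINS3 and -0.01 for GINS4, with no call. CDC7, the kinase that phosphorylates the loaded ring, had 67.8, 73.9 and 73.2 CPM in siTCF19 libraries, against 58.8, 59.5 and 60.0 CPM in siNC libraries. Its level was higher in every siTCF19 library, a log2 fold change of 0.27 ± 0.06 (SE; edgeR adjusted p = 0.000314). DONSON, which helps to assemble CMG, rose by 0.30 ± 0.06 on the log2 scale (edgeR adjusted p = 7.68e-05).

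Among 18 replisome partners, 4 fell, 3 rose and 11 were not called, with a median log2 fold change of -0.05. Over all tested genes 20.8% fell and 20.7% rose, so calls of this number are common in the comparison. FEN1, the flap nuclease of Okazaki fragments, had 132, 127 and 135 CPM in siTCF19 libraries, against 179, 181 and 183 CPM in siNC libraries. This was the largest fall of the list, -0.46 ± 0.05 on the log2 scale (SE; edgeR adjusted p = 1.97e-10). The ligase LIG1 (-0.25), the fork protection factor TIPIN (-0.23) and the sliding clamp PCNA (-0.21, edgeR adjusted p = 0.000192) also fell, all 3 named after their values were seen. TIPIN was not called without siTCF19 replicate 3 (adjusted p = 0.0535) or siNC replicate 1 (0.0848). The clamp loader gene RFC3 rose most (0.31 ± 0.06, SE; edgeR adjusted p = 3.38e-05), followed by the checkpoint mediator CLSPN (0.24) and RFC1 (0.17), both named after their values were seen.

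**Figure D3:**
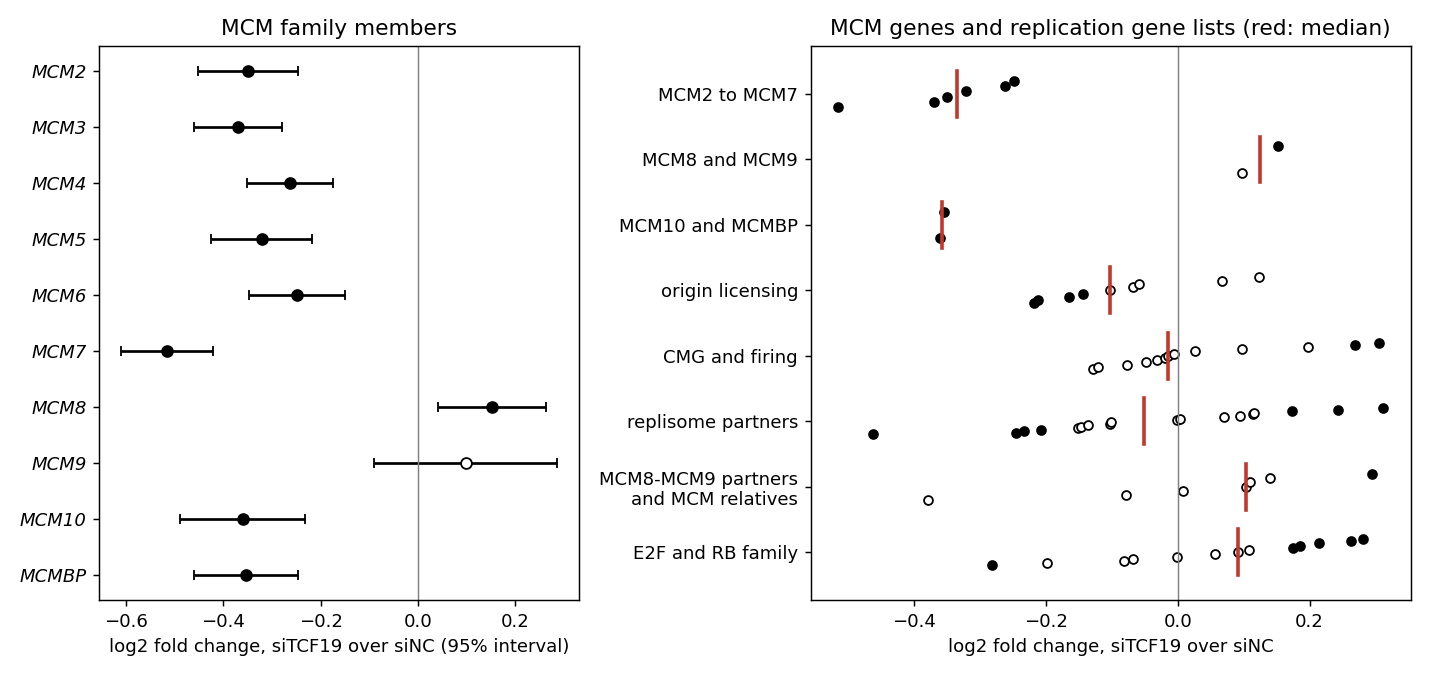
Left, log2 fold change (siTCF19 over siNC) of the 10 members with 95% intervals; right, the log2 fold change of each tested gene of the MCM groups and of 5 lists of replication genes, with the list median in red. Filled points were called and open points were not; MCM2 to MCM7 have a median of -0.34, against -0.10 for origin licensing and -0.01 for CMG and firing genes.

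Of 7 tested genes listed as MCM8-MCM9 partners or MCM relatives, 1 rose, 0 fell and 6 were not called, with a median of 0.10. The shares over all tested genes were 20.7% for rises and 20.8% for falls. Falls numbered 1 with p under 0.05 before adjustment and 0 by DESeq2, limma-voom or limma on FPKM. They numbered 1 without siTCF19 replicate 2 or siNC replicate 3, and rises numbered 2 without siTCF19 replicate 2 or 3 and 4 with library-size-only scaling. BRCA2, a central factor of homologous recombination, had 83.3 ± 6.09 CPM in siTCF19 and 67.9 ± 2.70 CPM in siNC (SD, n = 3 per group), a log2 fold change of 0.30 ± 0.06 (SE; edgeR adjusted p = 0.000105). C17orf53, now called HROB, which recruits MCM8-MCM9, was level (log2 fold change 0.01), and the MCM relative MCMDC2 was not called (log2 fold change -0.38, adjusted p = 0.0967).

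In the E2F and RB family, 5 of 13 genes rose, 1 fell and 7 were not called, with a median of 0.09. Over all tested genes 20.7% rose and 20.8% fell, or 41.5% in either direction. E2F1, an activator of S-phase genes, had 286, 264 and 296 CPM in siTCF19 libraries, against 230, 235 and 232 CPM in siNC libraries. E2F1 was higher in every siTCF19 library, with a log2 fold change of 0.28 ± 0.05 (SE; edgeR adjusted p = 4.76e-06). E2F7 (0.17) and E2F8 (0.26), which encode repressors, and the pocket protein genes RBL1 (0.21) and RBL2 (0.18, edgeR adjusted p = 0.0182) also rose and were named after their values were seen. RB1, a further pocket protein gene (0.11), and E2F4 (0.06), E2F5 (-0.20) and E2F6 (-0.08), which also encode E2F proteins known as repressors, were not called. TFDP2, a dimer partner of E2F proteins, fell by 0.28 ± 0.06 on the log2 scale (edgeR adjusted p = 8.34e-05). TFDP1, the other dimer partner gene of the list, averaged 519 CPM in both groups (log2 fold change -0.0008) and was not called. E2F2 (-0.07) and E2F3 (0.09) were not called either. Calls were lost without 1 library for E2F7 (siTCF19 replicate 2), E2F8 (siTCF19 replicate 1 or siNC replicate 3), RBL1 (siNC replicate 3) and RBL2 (siTCF19 replicate 1 or siNC replicate 1), with adjusted p from 0.0535 to 0.119. Without siTCF19 replicate 2 or siNC replicate 2, 2 genes of the family fell.

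Other cell cycle genes moved in both directions beside the MCM genes. The CDK inhibitor CDKN1A stood at 161 ± 7.89 CPM in siTCF19 and 32.9 ± 1.47 CPM in siNC (log2 fold change 2.29), and CCNE1 at 99.7 ± 3.43 CPM in siTCF19 and 73.1 ± 2.92 CPM in siNC (SD, n = 3 per group; log2 fold change 0.45). CCND1 (0.50) and CCNE2 (0.43), also cyclins that act before and at S-phase entry, rose. The proliferation marker MKI67 had 717 ± 29.3 CPM in siTCF19 and 798 ± 14.8 CPM in siNC, a log2 fold change of -0.15 ± 0.04 (SE; edgeR adjusted p = 0.00261). The fall of MKI67 lost its call with library-size-only scaling (adjusted p = 0.0568), which also moved the share of rises among all calls to 61.4%, beside 49.9% with TMM scaling.

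Over all tested genes with a RefSeq promoter, 719 had an E2F-type word, of which 26.4% fell and 21.0% rose. Of the 10438 genes without one 23.6% fell and 23.6% rose, and the difference between the sets was not tested. The median log2 fold change was -0.01 with a word and 0.00 without. Of the 6 members with a word shown above, 5 fell and MCM8 rose, a call lost under 5 of 16 alternatives. MCM10, with none in its window, fell as well, and MCM9, also with none, was not called (log2 fold change 0.10).

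Several members start next to a gene on the opposite strand, and these neighbours did not all move with them. TPRA1, whose outermost start lies 44 bases from that of MCM2, had 76.2, 76.3 and 85.8 CPM in siTCF19 libraries, against 47.4, 51.4 and 44.7 CPM in siNC libraries. TPRA1 rose by 0.73 ± 0.07 on the log2 scale (SE; edgeR adjusted p = 2.17e-12), while MCM2 fell. The ends of the pair overlap, and no source used here gives the strand setting of the counting, so reads in the overlap cannot be assigned. AC023593.1, an antisense gene over the end of MCM2, was not called (log2 fold change -0.89, adjusted p = 0.0898).

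SEC23IP, a gene of vesicle transport whose outermost start lies 155 bases from that of MCMBP, had 132, 135 and 123 CPM in siTCF19 libraries, against 93.1, 92.5 and 96.6 CPM in siNC libraries. SEC23IP rose by 0.46 ± 0.05 (SE; edgeR adjusted p = 1.46e-09), although the RefSeq starts of MCMBP lie 18975 and 19713 bases inside its outermost annotated start. PRKDC, a DNA repair kinase gene that starts 2 bases from MCM4, was not called (log2 fold change -0.10, adjusted p = 0.0688), but was without siTCF19 replicate 2 (-0.14, adjusted p = 0.0103) and by limma-voom (-0.11, 0.0407). TRMT6, 94 bases from MCM8, was not called (-0.08, adjusted p = 0.263).

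AP4M1, which overlaps the outermost annotated start of MCM7, fell by 0.25 (adjusted p = 0.0372). That call was kept under 5 of 16 alternatives and lost on leaving out any single library other than siNC replicate 1. The RefSeq starts of MCM7 lie 543, 1186 and 1411 bases inside its outermost annotated start and outside AP4M1. ASF1A, a histone chaperone gene inside the span of MCM9, fell by 0.24 (adjusted p = 0.00538), or was not called without siNC replicate 1 (adjusted p = 0.074).

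**Figure D4:**
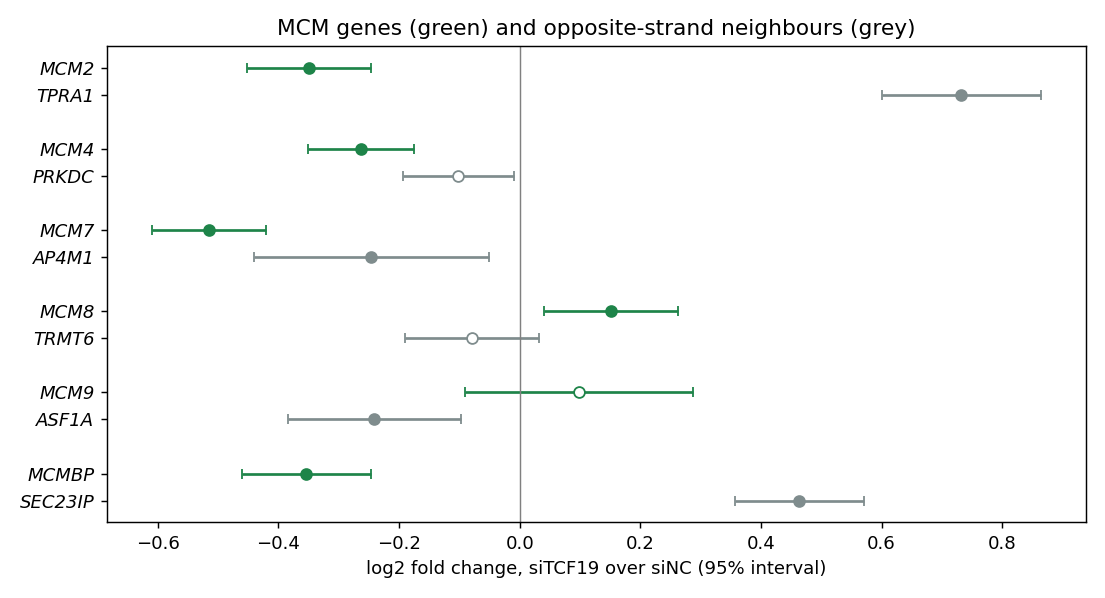
Log2 fold change (siTCF19 over siNC, 95% interval) of 6 members in green and of their tested protein-coding neighbours on the opposite strand in grey; filled points were called, open points were not. TPRA1 (0.73) and SEC23IP (0.46) lie on the other side of 0 from MCM2 and MCMBP.

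Other genes showed the same profile across the 6 libraries. Likeness was measured as the root mean square difference from the mean of MCM2 to MCM7 on log2 CPM centred per gene, over 10952 other protein-coding genes whose mean reached 5 CPM. The nearest were PARS2 (0.0164), PGAM5 (0.0187), PSME3 (0.0194), RFXANK (0.0195) and YBX1 (0.0195), with log2 fold changes of -0.33, -0.34, -0.36, -0.33 and -0.34. PARS2 kept its call under 6 of 16 alternatives and under none that left out a library, with adjusted p from 0.0511 to 0.0982 there. MCM3 lay at 0.0211 from that mean, with 8 other genes nearer, MCM5 at 0.0388 with 112 nearer, and MCM7 at 0.091 with 1376 nearer. These subunits are part of the mean, which shortens their own distances relative to those of other genes. MCM8, at 0.268, had 7609 nearer genes, and MCM9, at 0.236, had 6637. These distances rest on 6 libraries in 2 groups and mostly reflect the size of the group difference.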

How the data were processed

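The authors deposited 1 table of 58735 genes with integer read counts and FPKM of 6 libraries, per the file headers. The submitters' processing notes name HISAT2 2.0.5, featureCounts 1.5.0-p3 and build hg38. The table also lists the authors' normalized mean signal per group, log2 fold change, p-value and adjusted p-value, per the file headers. Counts were filtered with filterByExpr (17299 genes kept), scaled by TMM and tested with edgeR 4.0.16 (glmQLFit, glmQLFTest) in R 4.3.3 with group as the only term. The Benjamini-Hochberg adjustment ran over all tested genes. Intervals are 95% and use the SE of the edgeR fit, which includes the spread between libraries. The level of 3 counts equals 0.190 to 0.206 CPM and covers counting error only. Every 2 libraries differed beyond counting noise (chi-square per degree of freedom 2.28 or more). Alternatives used DESeq2 1.42.0 and limma 3.58.1. FPKM values were tested as log2(FPKM + 1), which understates changes of low genes. The fit was tested on simulated data. Replicate numbers do not pair libraries by the labels.

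Named genes were TCF19, the members, the largest rise, largest fall and 2 lowest p among called genes of each of 5 lists, neighbours within 1000 bases on the other strand or overlapping, the 5 nearest profiles and 5 cell cycle genes. Other list members are named after their values were seen. The members and lists were chosen with earlier results of these data known. The 27 symbols stored as dates were replaced through the gene identifier. Promoters came from RefSeq and transcript lengths from GENCODE.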

Additional observations from a re-analysis of the deposited data

How the results depend on the processing

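The 8 falls among the members were called under all 16 alternatives run (3 other scalings, 2 other filters, DESeq2, limma-voom, limma on log2(FPKM + 1), the replicate block, a threshold of 0.01 and 6 fits without 1 library), with MCM7 between -0.54 and -0.46 and MCM6 between -0.27 and -0.19 on the log2 scale. The rise of MCM8 was the only member call that was lost: 0 members were called higher by DESeq2 (MCM8 0.15, adjusted p = 0.0512), by limma on log2(FPKM + 1) (0.14, adjusted p = 0.116) and at an adjusted p under 0.01 (0.15, adjusted p = 0.024). On leaving out 1 library, 0 to 1 members were called higher and MCM8 ran from 0.10 to 0.20. Of the 60 tested pathway list members, 40 were not called, where 41.5% of all tested genes were called, and 11 rose and 9 fell. Library-size-only scaling gave 18 and 4, an adjusted p under 0.01 gave 5 falls, and leaving out 1 library gave 9 to 13 rises and 5 to 9 falls (5 without siNC replicate 1). The cause was not tested, except that library-size-only scaling raised the median log2 fold change of all tested genes to 0.06. With the replicate number as a block, 8 members fell and 1 rose, and 3433 genes rose and 3441 fell over the whole table, beside 3586 and 3597. Same-numbered libraries did not deviate together (r = 0.0248, -0.164 and -0.0241 over 11787 genes), so the numbers are not taken to pair them. Shares computed on the longest transcript length, an alternative chosen after seeing the data, left the same 3 shares (MCM4, MCM6 and MCM7) apart between the groups, with differences of 1.58, 0.81 and -2.61 percentage points beside 1.34, 1.04 and -2.53.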

Other observations

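The MCM7 span on chromosome 7 also holds the hairpin genes MIR25, MIR93 and MIR106B on the same strand. MIR25 had 19, 13 and 19 counts in siTCF19 libraries, against 28, 19 and 21 in siNC libraries, and was not called (log2 fold change -0.43, edgeR adjusted p = 0.332). MIR93 and MIR106B had at most 9 counts in any library and were not tested. Reads of these hairpins cannot be told from reads of the MCM7 transcript that contains them.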
